A study of Rattus norvegicus with 123 samples.

Results

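ENSRNOT00000013423 and ENSRNOT00000003977 are the 2 transcripts, of 22470 measured in rat liver, with the largest rises under cyproterone acetate in the M groups of the study. They were chosen by that rise, that is by the log2 difference between the M groups given cyproterone acetate and their corn oil controls, at 14 d and at 28 d. Those differences are therefore given here as a description and carry no test. Every other group holds arrays on which the choice did not rest. The table names its probe sets by Ensembl transcript identifier, and 0 of them occur in the gene table at hand (47357 genes), so no gene name, role, position or sequence is given for either transcript. ENSRNOT00000003977 had 1 row with identical values on every array, ENSRNOT00000051497, so its signal cannot be told apart from that of the second identifier. ENSRNOT00000013423 had 0 such rows.

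Liver RNA of adult Han Wistar rats dosed daily by gavage was hybridised to Affymetrix RaGene 2.0 ST arrays, and the 112 arrays that the labels mark as of good quality were used, in 29 groups of 3 to 5. The treated groups received cyproterone acetate at 100 mg/kg for 14 or 28 d, in M and in F groups (4 arrays each), phenobarbital at 80 mg/kg for 14 d (3), 28 d (5) or 90 d (3), 1,4-dichlorobenzene at 600 mg/kg for 28 d (4) or Wy-14643 at 60 mg/kg for 28 d (5). Others received methapyrilene at 30 mg/kg for 14 or 28 d or at 100 mg/kg for 14 d (3 each), piperonyl butoxide at 600 mg/kg for 14 or 28 d (3 each), pioglitazone at 16 mg/kg (3) or 63 mg/kg (5) for 28 d, or rosiglitazone at 10 mg/kg for 28 d (3). The 12 control groups received the vehicle for the same number of days. Corn oil (set D) served the cyproterone acetate M and F groups, each letter and day with 4 control arrays of its own, and corn oil of set B (4) served 1,4-dichlorobenzene. Carboxymethylcellulose of set A (5, 5 and 4 at 14, 28 and 90 d) served phenobarbital, that of set B (5) served Wy-14643, and that of set C (3 a day) served methapyrilene and piperonyl butoxide. Water (set E, 5) served pioglitazone and rosiglitazone. The labels describe male animals throughout and do not spell out the letters F and M, which are used here as names. F occurs only in the cyproterone acetate study, in treated groups and their controls. All other treated groups carry M in their names. The other control groups carry no letter F or M, and those of set D are called M controls here. The labels do not state that each array is a separate animal, in which case p-values measure only the spread between these samples. Doses are those of the dose label, in mg/kg. The names of the groups carry the same numbers with ppm.

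Cyproterone acetate is a steroid with antiandrogenic and progestogenic activity that enlarges the rat liver and raises drug-metabolising enzymes there, in large part through nuclear receptors of the xenobiotic response. Phenobarbital is the classical inducer of that response, Wy-14643 is an agonist of PPAR alpha, and pioglitazone and rosiglitazone are agonists of PPAR gamma. Rat liver is also known for many transcripts that differ between the sexes, a pattern set by the pulses of growth hormone. This is background on the compounds and the tissue, and neither transcript is assigned to any of these responses.

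All values are log2 levels as deposited, so a difference of 1 is a doubling. Array medians lay between 5.432 and 5.644. Because the probe sets have no gene names, the arrays could not be checked against liver markers, and markers of other cell types were not analysed here. In whole liver, fewer cells that hold a transcript and less of it per cell cannot be told apart.

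In the M groups ENSRNOT00000013423 had the largest difference of all transcripts at 14 d and the next to largest at 28 d. At 14 d it measured 8.57, 8.29, 7.83 and 8.59 in the 4 cyproterone acetate arrays, against 2.74, 2.27, 2.71 and 2.84 in the 4 corn oil arrays. Treated and control arrays were far apart at this day, with means of 8.32 ± 0.36 and 2.64 ± 0.25 (SD, n = 4 each). The log2 difference was 5.68. The control arrays lay below every array median and no detection level was used, so this size is not read as an exact fold. At 28 d the treated arrays read 8.32, 3.41, 9.11 and 7.97, against 2.78, 4.59, 2.62 and 2.39 in controls. Here the groups overlapped, because treated replicate 2 lay below control replicate 2, and the treated SD was 2.57. The mean difference was 4.11, and 5.37 without that treated array. Leaving out each of the 8 arrays in turn gave 3.47 to 5.37.

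ENSRNOT00000003977 had the largest difference at 28 d and the next to largest at 14 d. Cyproterone acetate arrays of the M groups at 14 d measured 10.26, 9.89, 9.83 and 10.04, against 5.88, 5.83, 5.72 and 5.73 in their controls. At 28 d they measured 10.17, 10.00, 10.19 and 10.28, against 6.07, 5.34, 5.32 and 5.70. All treated arrays of both days lay between 9.83 and 10.28, and all their controls at 6.07 or lower. The differences were 4.21 (18.5-fold) at 14 d and 4.55 (23.5-fold) at 28 d. The M 28 d array with the low value of the other transcript, replicate 2, had the lowest treated value here too, 10.00, but stayed with its group. Outside both transcripts, the largest rise was 2.73 at 14 d and 3.25 at 28 d.

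**Figure D1:**
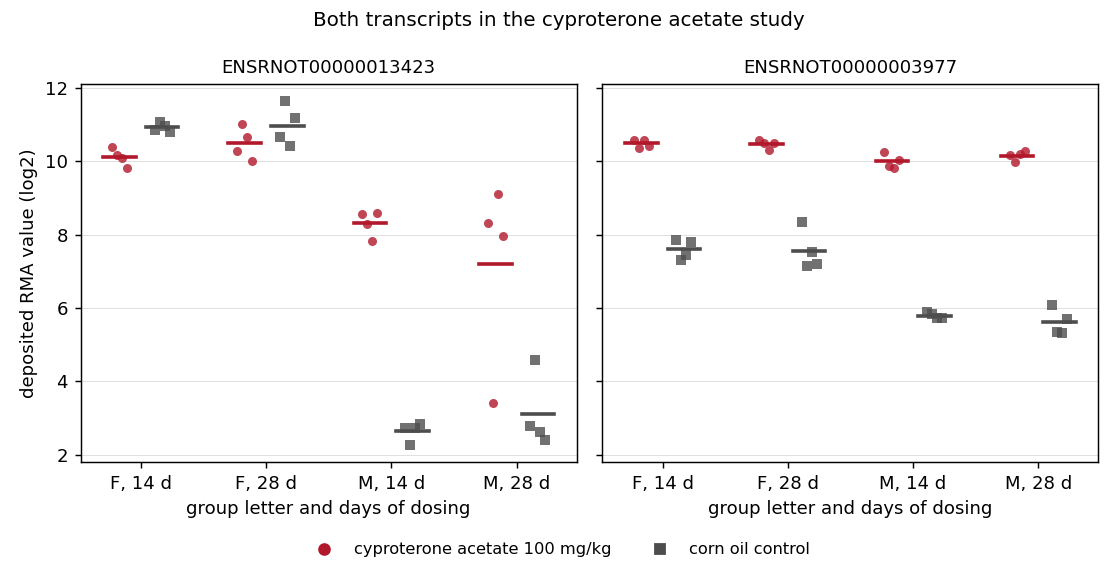
Log2 level of each transcript (y axis) in the arrays of the cyproterone acetate study by group letter and days of dosing (x axis), with circles for cyproterone acetate, squares for corn oil and a bar at each group mean. ENSRNOT00000013423 was high in all F arrays and, except for 1 array at 3.41, in treated M arrays, while ENSRNOT00000003977 was high in every treated array.

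In the F groups, which the choice did not use, ENSRNOT00000003977 rose as well, and ENSRNOT00000013423 did not pass the test on either day, with treated means below those of the controls. Calls are those of a linear model fitted with limma to all 22470 transcripts and all 29 groups, at a Benjamini-Hochberg adjusted p under 0.05. It called 1 of the 2 transcripts at each day, against 13.7% of all transcripts at 14 d and 15.2% at 28 d.

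ENSRNOT00000003977 measured 10.60, 10.36, 10.60 and 10.44 in F arrays given cyproterone acetate for 14 d, against 7.87, 7.30, 7.45 and 7.80 in F controls. After 28 d it measured 10.58, 10.51, 10.32 and 10.51, against 8.35, 7.15, 7.52 and 7.19. Treated arrays lay above all controls on both days, as for 11.1% of all transcripts at 14 d and 10.6% at 28 d. The log2 rise was 2.89 (SE 0.22, limma adjusted p = 2.28e-19) at 14 d, and 2.93 (SE 0.22, limma adjusted p = 1.07e-19) at 28 d, or 7.44-fold and 7.60-fold. The effect at 28 d minus that at 14 d was 0.03 (95% interval -0.59 to 0.65, limma adjusted p = 0.999), in a test that called 0.0089% of transcripts.

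The F and M groups given cyproterone acetate lay closer together for ENSRNOT00000003977 than the F and M controls. Treated F arrays averaged 0.49 above treated M arrays at 14 d and 0.32 above them at 28 d, whereas F controls averaged 1.81 and 1.95 above M controls. The 8 F control arrays (7.15 to 8.35, median 7.48) lay above each of the 42 other control arrays (5.17 to 6.07, median 5.67). The share of all transcripts with F controls apart in this way is not given here. These F against M differences rest partly on the arrays of the choice and were not tested.

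ENSRNOT00000013423 measured 10.39, 10.18, 10.10 and 9.83 in F arrays after 14 d of cyproterone acetate, against 10.87, 11.07, 10.97 and 10.80 in F controls. All 4 treated arrays lay below all 4 controls, a separation in either direction that 20.3% of all transcripts showed in this comparison. The difference was -0.80 (SE 0.78, 95% interval -2.35 to 0.74, limma adjusted p = 0.605). The model applies 1 SD of 1.10 to every group of this transcript, while the SDs of these 2 groups were 0.23 and 0.12. With only the F groups in the fit the limma adjusted p was 0.0359. An exact two-sided permutation test over the 8 arrays, not adjusted over transcripts, gave p = 0.0286, the smallest this design allows. After 28 d the arrays overlapped, with 10.30, 11.03, 10.66 and 10.02 in treated F and 10.66, 11.66, 10.42 and 11.19 in F controls. That difference was -0.48 (SE 0.78, limma adjusted p = 0.783), with p = 0.229 in the exact permutation test.

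The level of ENSRNOT00000013423 set the F groups apart from the rest of the series. In the 8 F control arrays it ranged from 10.42 to 11.66 (median 10.92), and in the 42 other control arrays from 2.09 to 6.24 (median 2.82). Treated F arrays averaged 1.80 above treated M arrays at 14 d and 3.30 above them at 28 d, whereas F controls averaged 8.29 and 7.89 above M controls. The treated M mean at 28 d, 7.20, includes replicate 2 at 3.41, and the median of that group was 8.15. Over all used arrays, the 16 F arrays lay at 9.83 or higher, and the other 96 at 9.11 or lower. No share of all transcripts with such a separation is given here, so it is not read as particular to this transcript. No F against M difference was tested, since the M arrays served the choice.

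**Figure D2:**
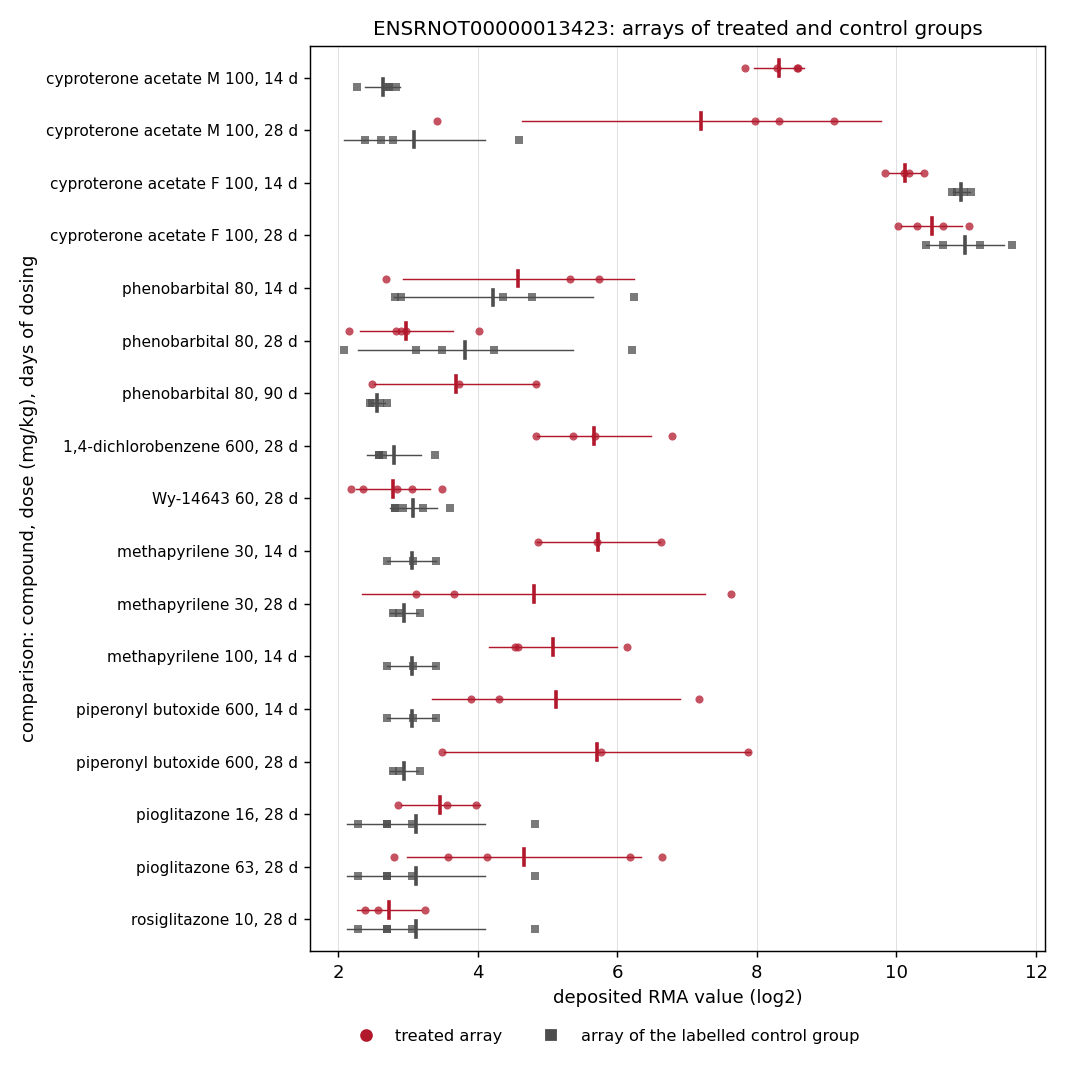
Log2 level of ENSRNOT00000013423 (x axis) in every used array by comparison (y axis), with red circles for treated arrays above grey squares for their labelled controls, bars at means and lines of 1 SD to either side. The F arrays stand alone at 9.83 and higher, and the widest group, cyproterone acetate M at 28 d, has an SD of 2.57.

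Outside the cyproterone acetate study ENSRNOT00000013423 was mostly low and uneven, with a lowest value of 2.09, a median of 3.32 and a highest of 7.87 over 80 arrays. Its median of 3.32 lay below every array median and no detection level was used. The sizes of its differences there are therefore not read as exact folds. ENSRNOT00000013423 passed the test in 2 of the 15 comparisons with arrays that the choice did not use, both of them rises. 7 of the 15 had an unadjusted p under 0.05. In these 7, from 2677 (piperonyl butoxide at 14 d) to 12234 (higher methapyrilene dose at 14 d) of 22470 transcripts had one too. Several of the 15 comparisons share control arrays: methapyrilene and piperonyl butoxide at the same day, and pioglitazone and rosiglitazone.

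With 1,4-dichlorobenzene ENSRNOT00000013423 measured 4.84, 6.78, 5.69 and 5.36, against 2.64, 3.39, 2.59 and 2.59 in its corn oil controls. The groups did not overlap, as for 12.9% of all transcripts. The rise was 2.87 (SE 0.78, limma adjusted p = 0.0117), and both transcripts were called in this comparison, against 5.96% of all. All controls and the treated arrays at 4.84 and 5.36 lay below every array median. Without treated replicate 2 the rise was 2.49 and the adjusted p 0.0704.

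With piperonyl butoxide at 28 d ENSRNOT00000013423 measured 5.77, 3.48 and 7.87, against 2.87, 2.79 and 3.18 in controls. Each treated array lay above each control, by very different amounts, and 19.5% of all transcripts had groups apart in either direction. The rise was 2.76 (SE 0.90, limma adjusted p = 0.0313), and both transcripts were called, against 10.6% of all. The call was lost without treated replicate 1 (adjusted p = 0.113) or 3 (difference 1.68, adjusted p = 0.270), without control replicate 1, 2 or 3 (adjusted p = 0.0759, 0.0922 and 0.0630), and with only the same control set in the fit (0.159). It held without treated replicate 2 (adjusted p = 0.00251). At 14 d piperonyl butoxide arrays measured 7.17, 4.30 and 3.91, against 3.40, 3.07 and 2.70 in controls, a difference of 2.07 (SE 0.90, limma adjusted p = 0.304).

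Methapyrilene arrays gave differences of similar size that missed the threshold. At 100 mg/kg and 14 d ENSRNOT00000013423 measured 4.53, 4.58 and 6.14, against 3.40, 3.07 and 2.70, a difference of 2.03 (SE 0.90, limma adjusted p = 0.0536). At 30 mg/kg and 14 d it measured 5.71, 6.62 and 4.86 against the same controls, a difference of 2.67 (SE 0.90, limma adjusted p = 0.0795). Neither of these groups overlapped the controls, but 60.2% of all transcripts at 100 mg/kg and 23.5% at 30 mg/kg did not overlap either. At 30 mg/kg and 28 d the treated arrays read 7.62, 3.66 and 3.12, against 2.87, 2.79 and 3.18, and 1 treated array lay inside the control range. That difference was 1.86 (95% interval 0.08 to 3.64, limma adjusted p = 0.203), and 0.45 without treated replicate 1.

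For phenobarbital, Wy-14643 and the PPAR gamma agonists the arrays of ENSRNOT00000013423 overlapped those of the controls. Phenobarbital at 28 d read 2.98, 2.90, 2.16, 4.02 and 2.82, against 6.21, 2.09, 3.48, 3.11 and 4.23, a difference of -0.85 (95% interval -2.23 to 0.53). The differences were 0.36 (-1.23 to 1.95) at 14 d and 1.13 (-0.54 to 2.79) at 90 d. With Wy-14643 the difference was -0.29 (-1.67 to 1.09). Pioglitazone at 63 mg/kg read 3.57, 4.14, 6.19, 2.80 and 6.64, against 4.82, 2.29, 2.71, 2.71 and 3.06 in water controls. That difference was 1.55 (0.18 to 2.93, limma adjusted p = 0.238). Pioglitazone at 16 mg/kg gave 0.35 (-1.24 to 1.94) and rosiglitazone -0.38 (-1.97 to 1.21). The intervals are wide: a doubling lies inside all of them but that of phenobarbital at 28 d. The SD within groups of this transcript ran from 0.11 (carboxymethylcellulose at 90 d) to 2.57 (cyproterone acetate M at 28 d).

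**Figure D3:**
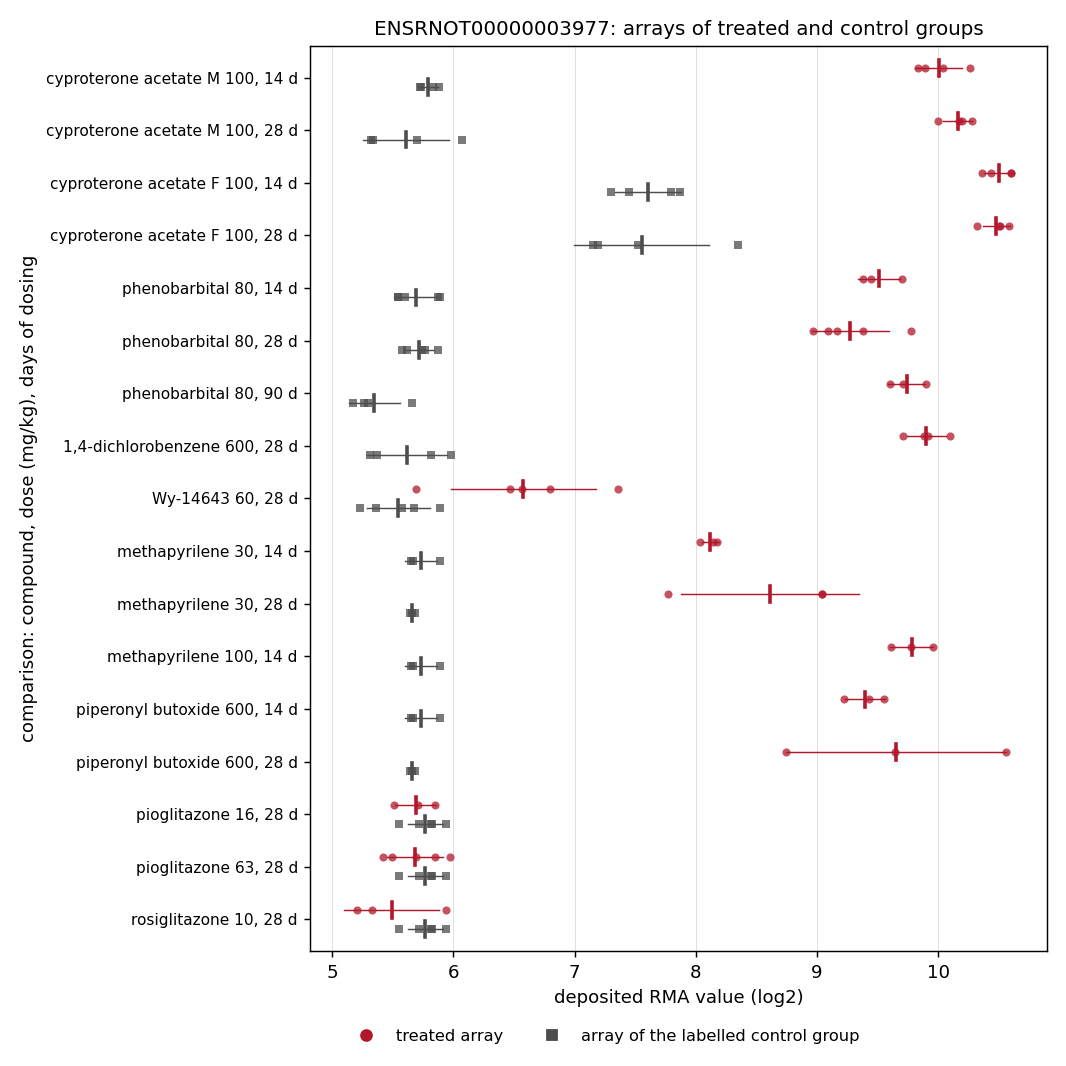
Log2 level of ENSRNOT00000003977 (x axis) in every used array by comparison (y axis), drawn as circles for treated arrays above squares for their labelled controls, with bars at means and lines of 1 SD to either side. Treated arrays lie clear of their controls in all comparisons except Wy-14643, which overlaps in 1 treated array, and the pioglitazone and rosiglitazone groups.

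ENSRNOT00000003977 rose in 12 of the 15 comparisons with arrays outside the choice, which is every one except pioglitazone at either dose and rosiglitazone. Treated arrays all lay above the controls in 11 of the 15. The share of all transcripts with treated arrays above all controls ran from 1.38% to 28.9% over the 15 comparisons, with a median of 8.38%. The rises outside cyproterone acetate ranged from 1.03 with Wy-14643 to 4.39 with phenobarbital at 90 d. The model applies 1 SD of 0.31 to every group of this transcript. The widest groups were piperonyl butoxide at 28 d (SD 0.91), methapyrilene 30 mg/kg at 28 d (0.73), Wy-14643 (0.60) and F controls at 28 d (0.56). The SEs and p-values of those comparisons therefore do not reflect the spread of these groups.

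Phenobarbital arrays measured 9.38, 9.45 and 9.70 at 14 d, against 5.60, 5.87, 5.54, 5.54 and 5.89 in controls. At 28 d they measured 9.09, 8.96, 9.16, 9.78 and 9.38, against 5.75, 5.57, 5.62, 5.77 and 5.87. At 90 d they measured 9.71, 9.90 and 9.60, against 5.17, 5.66, 5.30 and 5.27. The transcript stood high in every phenobarbital array at each time. The rises were 3.82 (SE 0.23, limma adjusted p = 9.01e-25), 3.56 (SE 0.20, limma adjusted p = 6.04e-27) and 4.39 (SE 0.24, limma adjusted p = 1.39e-27). The test called 1 of the 2 transcripts at each time, against 1.44%, 1.23% and 1.98% of all. The effect of 28 d minus that of 14 d was -0.26 (-0.86 to 0.34, limma adjusted p = 0.857), and that of 90 d minus 28 d was 0.83 (0.22 to 1.44, limma adjusted p = 0.847). These tests called 0.0712% and 0.00445% of all transcripts.

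With 1,4-dichlorobenzene ENSRNOT00000003977 measured 9.89, 10.10, 9.91 and 9.71, against 5.37, 5.31, 5.98 and 5.81 in controls. The rise of 4.28 (SE 0.22, limma adjusted p = 3.43e-29) was 19.5-fold. Wy-14643 gave the smallest rise, 1.03 (SE 0.20, limma adjusted p = 1.46e-05), in a comparison that called 24.3% of all transcripts and 1 of these 2. Its arrays read 6.57, 7.35, 6.80, 5.69 and 6.47, against 5.58, 5.36, 5.89, 5.67 and 5.23, so that 4 of 5 treated arrays lay above the highest control.

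Methapyrilene raised ENSRNOT00000003977 more at the higher dose. At 100 mg/kg and 14 d it measured 9.77, 9.61 and 9.96, against 5.67, 5.89 and 5.65 in controls. At 30 mg/kg and 14 d the treated arrays read 8.14, 8.17 and 8.04, against the same controls. At 30 mg/kg and 28 d they read 7.77, 9.04 and 9.04, against 5.68, 5.64 and 5.66. The rises were 4.04 (SE 0.25, limma adjusted p = 1.05e-25), 2.38 (SE 0.25, limma adjusted p = 7.93e-11) and 2.95 (SE 0.25, limma adjusted p = 4.30e-15). The test called 1 of the 2 transcripts in each, against 48.1%, 3.38% and 9.43% of all. The 2 doses at 14 d differed by 1.66 (SE 0.25, limma adjusted p = 5.03e-08), in a test that called 36.3% of all transcripts. Their arrays did not overlap, but the share of all transcripts with these doses apart is not given here. Between 28 and 14 d at 30 mg/kg the effect differed by 0.57 (-0.14 to 1.28, limma adjusted p = 0.999), where limma called 0% of all transcripts and 1020 had an unadjusted p under 0.05.

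Piperonyl butoxide arrays measured 9.43, 9.55 and 9.22 at 14 d, against 5.67, 5.89 and 5.65 in controls. At 28 d they spread more, at 8.74, 9.64 and 10.56, against 5.68, 5.64 and 5.66. The rises were 3.66 (SE 0.25, limma adjusted p = 1.72e-20) and 3.99 (SE 0.25, limma adjusted p = 8.00e-23). At 14 d the test called 1 of the 2 transcripts, against 1.9% of all. The effect differed between days by 0.32 (-0.39 to 1.04, limma adjusted p = 0.803), in a test that called 0.0401% of all.

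The PPAR gamma agonists left ENSRNOT00000003977 inside or near the range of the water controls, which read 5.94, 5.71, 5.56, 5.82 and 5.81. Pioglitazone arrays read 5.71, 5.85 and 5.51 at 16 mg/kg and 5.49, 5.42, 5.98, 5.85 and 5.69 at 63 mg/kg. The differences were -0.08 (-0.53 to 0.37, limma adjusted p = 0.961) and -0.08 (-0.47 to 0.31, limma adjusted p = 0.883). Rosiglitazone arrays read 5.94, 5.20 and 5.33, a difference of -0.28 (-0.73 to 0.17, limma adjusted p = 0.742). Each interval leaves out a doubling. Neither transcript was called with these compounds, against 0.049%, 2.41% and 0.681% of all transcripts. Between the pioglitazone doses ENSRNOT00000003977 differed by -0.003 (-0.45 to 0.45) and ENSRNOT00000013423 by 1.20 (-0.39 to 2.79), with limma adjusted p of 0.999 and 0.564, in a test that called 0.0134% of all.

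**Figure D4:**
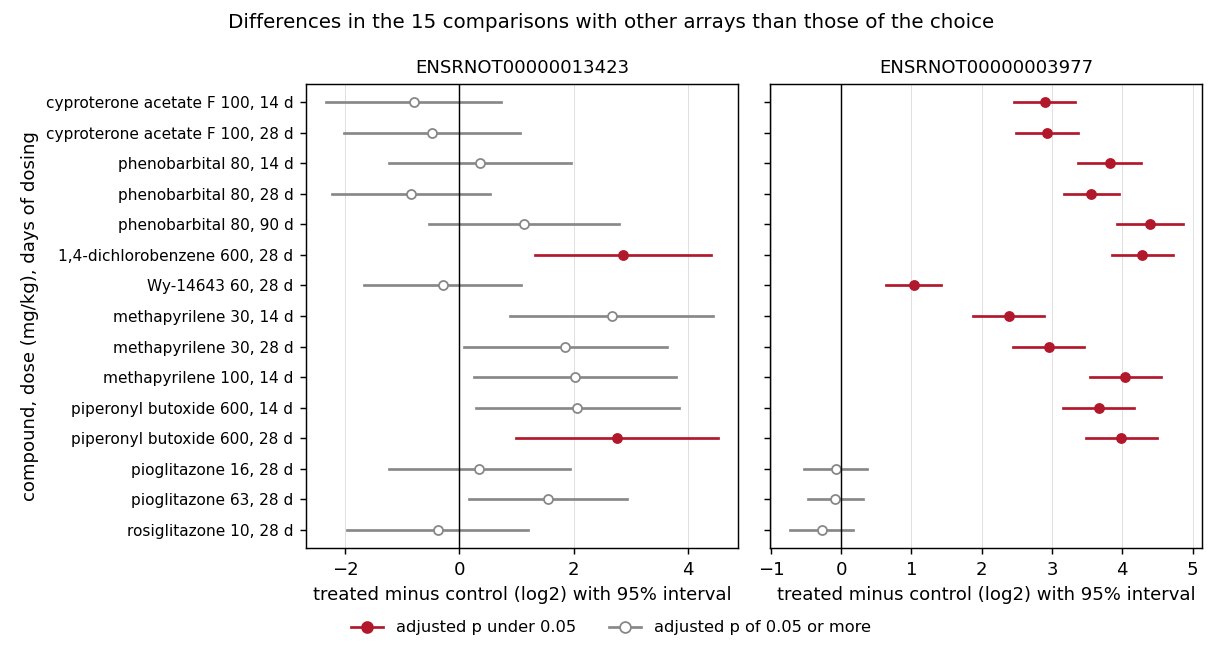
Treated minus control difference (x axis, log2, lines for the 95% interval) of each transcript in the 15 comparisons that the choice did not use (y axis), filled red where the adjusted p was under 0.05 and open grey otherwise. ENSRNOT00000003977 lies to the right of 0 in 12 comparisons with narrow intervals, and ENSRNOT00000013423 passes the test with 1,4-dichlorobenzene and with piperonyl butoxide at 28 d.

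Among control groups neither vehicle nor time moved the transcripts past the threshold. Corn oil minus carboxymethylcellulose in set B at 28 d gave -0.28 (-1.74 to 1.18) for ENSRNOT00000013423 and 0.07 (-0.34 to 0.48) for ENSRNOT00000003977, against 0.583% of transcripts called. F controls at 28 d minus 14 d gave 0.05 (-1.49 to 1.59) and -0.05 (-0.49 to 0.39), where limma called 0% and 863 transcripts had an unadjusted p under 0.05. In the carboxymethylcellulose controls of set A the differences were -0.40 (-1.77 to 0.98) and 0.03 (-0.37 to 0.42) between 28 and 14 d, and -1.26 (-2.72 to 0.20) and -0.37 (-0.78 to 0.05) between 90 and 28 d. These tests called 0.169% and 0.352% of all transcripts. Over the 11 differences tested for day, dose and vehicle, ENSRNOT00000003977 passed in 1, the methapyrilene doses, with 2 at an unadjusted p under 0.05. These 2 were the methapyrilene doses and phenobarbital at 90 minus 28 d, where 10012 and 1088 of all transcripts had one too. ENSRNOT00000013423 passed in 0, with 0 at an unadjusted p under 0.05. Its remaining differences were 0.33 (-1.85 to 2.51) for 28 minus 14 d in cyproterone acetate F, -1.21 (-3.32 to 0.89) and 1.98 (-0.18 to 4.14) for phenobarbital at 28 minus 14 d and 90 minus 28 d, -0.82 (-3.33 to 1.70) and 0.69 (-1.82 to 3.21) for 28 minus 14 d with methapyrilene and piperonyl butoxide, and -0.65 (-2.42 to 1.13) between the methapyrilene doses.

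The order of the 29 groups differed between the transcripts. For ENSRNOT00000013423 the 4 F groups came first, with means of 10.98 and 10.93 in controls at 28 and 14 d and 10.51 and 10.13 in treated F groups. The 2 treated M groups followed at 8.32 and 7.20, and all others had means between 2.56 and 5.73. Neighbours in that order had overlapping arrays except at 1 of 28 steps, between treated F at 14 d and treated M at 14 d. For ENSRNOT00000003977 the 4 cyproterone acetate groups came first, with means of 10.50 and 10.48 in F and 10.16 and 10.00 in M. Then came 1,4-dichlorobenzene at 9.90, methapyrilene at 100 mg/kg at 9.78, phenobarbital and piperonyl butoxide between 9.28 and 9.74, and methapyrilene at 30 mg/kg at 8.62 and 8.12. The F controls at 7.60 and 7.55 and Wy-14643 at 6.58 stood between these and the remaining groups, at 5.35 to 5.79. Neighbours had overlapping arrays except at 2 of 28 steps, below treated F at 28 d and below methapyrilene 30 mg/kg at 14 d.

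Both transcripts were high in groups given cyproterone acetate, but within groups no correlation between them was detected. Over the 29 group means Pearson's r was 0.59 and Spearman's rho 0.71, over the 25 means without F 0.74 and 0.72, and over the 21 means outside the cyproterone acetate study, which leave out the groups of the choice, 0.68 and 0.68. These are descriptions of group means. Over the deviations of 112 arrays from their group means, r was -0.007 (two-sided permutation within groups, p = 0.961) and rho 0.047 (permutation p = 0.674), with an adjusted p of 0.961 for each over these 2 coefficients. Without the 4 groups of the choice r was -0.03 (96 arrays), and without the 2 arrays farthest from the median of ENSRNOT00000013423 it was 0.06. In piperonyl butoxide at 28 d replicate 3 was the highest array for both transcripts. In methapyrilene 30 mg/kg at 28 d replicate 1 was highest for ENSRNOT00000013423 (7.62) and lowest for ENSRNOT00000003977 (7.77). Of the 15 comparisons, 2 called both transcripts, 10 called ENSRNOT00000003977 alone, 0 called ENSRNOT00000013423 alone and 3 called neither.

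**Figure D5:**
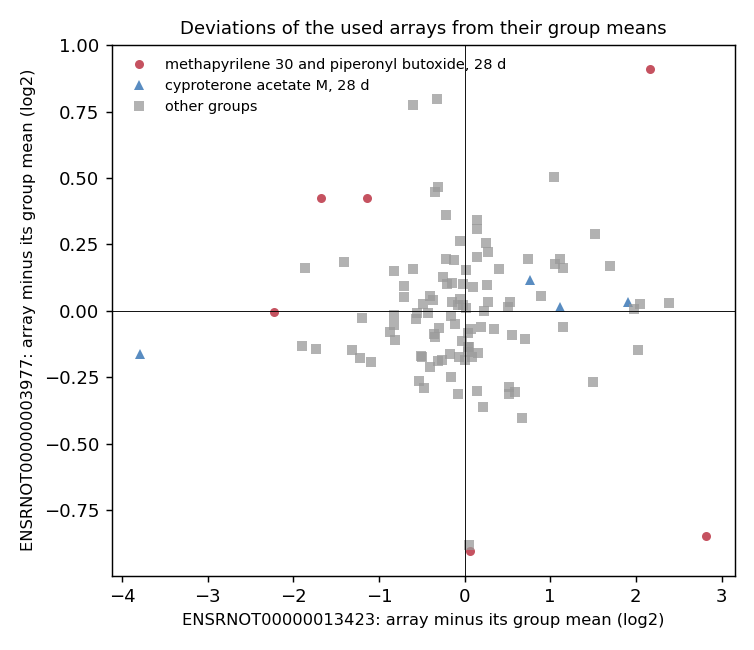
Deviation of each used array from its group mean for ENSRNOT00000013423 (x axis, log2) and ENSRNOT00000003977 (y axis, log2), with circles for methapyrilene at 30 mg/kg and piperonyl butoxide at 28 d, triangles for cyproterone acetate M at 28 d and squares for other groups. No slope is visible (r = -0.01 over 112 arrays), and the widest deviations of ENSRNOT00000013423 come from a few arrays.

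The 2 transcripts whose group means were most like each member were taken from all others and are described with no test, since their pattern chose them. ENSRNOT00000013720 and ENSRNOT00000047954 followed ENSRNOT00000013423 with r of 0.93 and 0.92 over 29 group means, but with 0.16 and 0.27 over deviations within groups. ENSRNOT00000013720 averaged 7.40 in treated F, 7.87 in F controls, 6.96 in treated M and 6.13 in M controls at 14 d. Its differences in F were -0.47 at 14 d and -0.57 at 28 d (SE 0.14 each). ENSRNOT00000047954 averaged 7.66, 8.12, 6.28 and 5.44 in the same groups. Its differences in F were -0.46 at 14 d and -0.90 at 28 d (SE 0.20 each). Like ENSRNOT00000013423, both had their highest means in F controls.

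ENSRNOT00000040950 and ENSRNOT00000004780 followed ENSRNOT00000003977 with r of 0.94 and 0.92 over 29 group means, and 0.47 and 0.35 within groups. ENSRNOT00000040950 averaged 10.84 in treated F, 9.25 in F controls, 10.43 in treated M and 8.08 in M controls at 14 d. Its differences in F were 1.59 at 14 d and 1.48 at 28 d (SE 0.37 each). ENSRNOT00000004780 averaged 13.12, 11.89, 12.87 and 12.05 in the same groups, with differences in F of 1.23 and 1.21 (SE 0.11 each). All 4 were picked as the most alike out of 22470 over means that include the F groups, so both r and these differences follow from that choice.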

How the data were processed

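The deposited table holds log2 values, made by the authors with RMA and affy per the submitters' processing notes, with versions, genome build and a common normalization run not given in the sources used here. Normalization between arrays can remove shifts shared by most transcripts. No step was repeated. Of 23110 rows, 640 repeated an earlier row and were counted once. Left out were 11 arrays without a good quality mark, 1 of them a technical repeat. limma 3.58.1 in R 4.3.3 fitted 1 mean per group (83 residual and 4.233 prior degrees of freedom), on all 22470 transcripts, with Benjamini-Hochberg adjustment over all of them per comparison at 0.05. The fit was tested on simulated data. Permutations (100000) were run within groups in Python 3.11.15 with SciPy 1.17.1. The members, tests and transcripts compared were chosen with earlier results of these data known. Apart from the members, the transcripts named are the 2 with the highest correlation with each over group means. Lists of liver, cell type and pathway genes were planned by symbol and could not be run without names. Same-numbered arrays of treated and control groups did not deviate together: in 0 of 17 comparisons was every correlation over 0.1, so replicate numbers were not used as pairs. The number of arrays limits the precision.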

Additional observations from a re-analysis of the deposited data

Results flagged for a closer look

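ENSRNOT00000003977 differed between the methapyrilene doses at 14 d, where 100 mg/kg minus 30 mg/kg gave 1.66 (limma adjusted p = 5.03e-08). That test called 36.3% of all transcripts. All 3 arrays at 100 mg/kg lay above all 3 at 30 mg/kg, with no share of all transcripts given for this separation.

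For ENSRNOT00000013423 under cyproterone acetate at 14 d, all 4 treated F arrays lay below all 4 F controls, and all 4 treated M arrays lay above all 4 M controls. The effect in F minus that in M was -6.49. The F difference (-0.80) did not pass the limma test (adjusted p = 0.605), and 20.3% of all transcripts had the F groups apart in either direction. The difference between F and M was not tested, because the M arrays served the choice of the transcript.

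In 1 of the 36 groups of 4 or 5 arrays examined over both transcripts, the gap between the end array and its nearest neighbour, as a share of the group's range, exceeded Dixon's 95% critical value, which chance does in about 1 in 20. It was corn oil replicate 2 of set B at 28 d, at 3.39 for ENSRNOT00000013423, with a gap of 0.93 of the range. For the same transcript, replicate 2 of the M corn oil controls at 28 d (4.59) and of cyproterone acetate M at 28 d (3.41) lay farther from their groups in log2 units, but their gaps of 0.82 and 0.80 of wider ranges were just below that value.

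Some treated arrays that are not marked as of good quality lay above all used arrays of their labelled control group. For ENSRNOT00000003977 these were phenobarbital replicates 2 and 4 at 14 d (9.23 and 9.28), phenobarbital replicates 1 and 3 at 90 d (10.04 and 9.45), 1,4-dichlorobenzene replicate 4 (9.80) and rosiglitazone replicate 5 (5.97, against a highest control of 5.94). For ENSRNOT00000013423 they were phenobarbital replicate 1 at 90 d (4.58, against 2.70) and 1,4-dichlorobenzene replicate 4 (3.55, against 3.39). This 1,4-dichlorobenzene array lay below the 4 used arrays of its group, which began at 4.84. The flag looked only for values above the controls. For ENSRNOT00000013423, phenobarbital replicate 2 at 14 d (1.95, against a lowest control of 2.82) lay below all its labelled controls. So did phenobarbital replicate 3 at 90 d (2.07, against 2.46). For ENSRNOT00000003977, rosiglitazone replicate 3 did (5.21, against 5.56).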

How the results depend on the processing

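ENSRNOT00000003977 was called in 12 of the 15 comparisons under each of the 9 alternatives and without each of 96 arrays in turn. Under the alternatives its limma adjusted p reached 0.0110 with Wy-14643. It reached 1.48e-04 with methapyrilene 30 mg/kg at 28 d and 1.93e-06 with piperonyl butoxide at 28 d. The calls of ENSRNOT00000013423 numbered 2 or 3 under the alternatives and 1 to 3 without 1 array. Its call with piperonyl butoxide at 28 d was lost with array weights (2.63, adjusted p = 0.109) and in a fit of its own control set alone (2.76, 0.159). Without 1 array the difference ran from 1.68 to 3.87. With 1,4-dichlorobenzene that range was 2.49 to 3.14. Methapyrilene passed with array weights at 30 mg/kg (2.76, adjusted p = 0.0167) and 100 mg/kg (1.94, 0.0239) at 14 d, and at 100 mg/kg also without the dimmest 40% of transcripts (2.03, 0.0426), an alternative that tests fewer transcripts. The F difference at 14 d (-0.80) passed with only the F groups. The exact permutation test gave p = 0.0286, which is not adjusted over transcripts. Any transcript with these groups apart, 20.3% of all, would have that p. The other causes were not tested.

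Signs changed only for differences that were not called. For ENSRNOT00000013423, phenobarbital at 14 d was -0.35 with all arrays, and without 1 array the ranges were -0.21 to 1.31 there, -0.64 to 0.0443 with rosiglitazone, -2.23 to 0.0256 and -0.39 to 1.81 for 28 minus 14 d with methapyrilene and piperonyl butoxide, -0.17 to 0.24 for F controls by day and -0.99 to 0.11 for set A controls at 28 minus 14 d. For ENSRNOT00000003977, 28 minus 14 d in cyproterone acetate F was -0.0227 with arrays centred on their medians, and the vehicles differed by -0.00717 with array weights. Its ranges without 1 array were -0.10 to 0.30 and -0.0495 to 0.17 for these, -0.32 to 0.0835 for F controls by day, -0.0140 to 0.0764 for set A controls at 28 minus 14 d, -0.0907 to 0.0763 between pioglitazone doses, -0.16 to 0.00858 with pioglitazone at 16 mg/kg and -0.13 to 0.78 for piperonyl butoxide by day. The correlation within groups was 0.0622 without the 2 farthest arrays, 0.0562 with all arrays, 0.0025 with arrays centred, 0.0077 with quantile normalization and, in an alternative chosen after seeing the data, 0.0454 without the methapyrilene and piperonyl butoxide groups. Centring shifted the median of all transcripts by -0.13 with methapyrilene at 100 mg/kg and by -0.11 between its doses.

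With the replicate number as a block no call changed among 56 results, and the largest shift of a difference was 0.15. With the block ENSRNOT00000003977 rose by 2.89 and 2.93 in F at 14 and 28 d. The vehicle comparison has no value with only the same control set. The share of all transcripts called depends more on the fit: with only the same control set, phenobarbital at 14 d called 85 in place of 323, phenobarbital at 28 and 90 d 148 and 280 in place of 277 and 446, methapyrilene at 30 mg/kg and 14 or 28 d 144 and 825 in place of 760 and 2120, piperonyl butoxide 131 and 873 in place of 428 and 2390, 1,4-dichlorobenzene 684 in place of 1340, pioglitazone at 16 and 63 mg/kg 0 and 154 in place of 11 and 542 and rosiglitazone 5 in place of 153. Other alternatives called more: with all arrays, phenobarbital at 14 and 90 d called 1085 and 896 and rosiglitazone 426, and with array weights methapyrilene at 30 mg/kg and 14 d called 1551, piperonyl butoxide at 14 d 774, 1,4-dichlorobenzene 1987 and pioglitazone at 63 mg/kg 851.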

Other observations

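ENSRNOT00000003977 ranked high among the rises of several comparisons that the choice did not use. Among 22470 transcripts its rank was 2 with phenobarbital at 14 d and with 1,4-dichlorobenzene, 3 with phenobarbital at 28 and 90 d, 4 with piperonyl butoxide at both days, and 17 and 16 with cyproterone acetate in F at 14 and 28 d. With methapyrilene its rank was 10 and 8 at 30 mg/kg and 14 and 28 d, and 32 at 100 mg/kg. With Wy-14643 its rank was 339, and it did not rise with pioglitazone or rosiglitazone.

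ENSRNOT00000013423 had the largest positive difference of all 22470 transcripts with pioglitazone at 63 mg/kg, 1.55, without passing the test (limma adjusted p = 0.238), and its arrays in that group ran from 2.80 to 6.64. Its fitted SD of 1.10 exceeded that of 99.96% of transcripts, against 87.17% for ENSRNOT00000003977, whose fitted SD was 0.31. Single control arrays outside F reached 6.21 and 6.24 in the carboxymethylcellulose groups of set A at 28 and 14 d. The technical repeat of carboxymethylcellulose replicate 3 at 14 d, not marked as of good quality, read 2.61 against 2.91 for ENSRNOT00000013423 and 5.54 against 5.54 for ENSRNOT00000003977, while the 5 used arrays of that group ran from 2.82 to 6.24 and from 5.54 to 5.89.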
